A study of Mus musculus with 2 samples.

Results

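The genes described here are 10 subunit genes of the voltage-gated calcium channels, taken by name: Cacna1a, Cacna1b, Cacna1c, Cacna1d, Cacna1e, Cacna1g, Cacna1h and Cacna1i, which encode pore-forming subunits, and Cacna2d1 and Cacnb4, which encode auxiliary subunits. All 10 were found among the 55536 annotated genes of the tables. The tissue was left cerebral cortex, taken at 10 days of age from male mice of the hybrid B6CASTF1/J, a cross of C57BL/6J and CAST/EiJ, and its total RNA was sequenced. Each of the 2 libraries (replicate 1 and replicate 2) was made from 300 ng of RNA with ERCC spike-ins, which are synthetic RNAs of known amount. The labels give the tissue samples their own animal numbers but 1 shared donor identifier, and the tissue came from The Jackson Laboratory. There was 1 group and no control, so no test between groups exists, and every SD (n = 2) reflects the spread of these samples alone.

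A voltage-gated calcium channel opens when the membrane depolarises and lets calcium into the cell, where it triggers transmitter release, shapes firing and reaches the nucleus as a signal for transcription. A single large pore-forming subunit decides the channel class: Cav1 channels carry the long-lasting L-type current, Cav2 channels sit mainly at nerve terminals and carry the P/Q-, N- and R-type currents, and Cav3 channels open near rest and carry the transient T-type current. Cav1 and Cav2 channels are assembled with a cytoplasmic beta subunit and an extracellular alpha2delta subunit, which bring them to the membrane and tune their gating. The pore-forming genes are long and heavily spliced, and many of their alternative exons change how the channel opens, closes or binds other proteins.

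Levels are in TPM, an abundance per transcript length, which adds up to a fixed total over all records of a library. The authors deposited 2 quantifications: the first rests on transcriptome alignments, and the second matched the reads to a transcript index. The tables and the coordinates refer to mouse genome mm10 with GENCODE M21. The libraries held 31254528 and 30218308 expected counts (replicates 1 and 2). Calcium channel members took 0.245% and 0.246% of these counts, or 76469 and 74421. All 8 markers of cortical glutamatergic neurons were detected, and their summed level was 2081 TPM in replicate 1 and 2115 TPM in replicate 2. Of the 5 cerebellar markers only Car8 was detected, and the Purkinje cell gene Pcp2 was listed at 0 in both libraries. The 5 thalamic markers summed to 56.3 and 56.6 TPM, and the 5 mural cell markers to 68.6 and 62.5 TPM. The 8 striatal markers were all lower in replicate 2, with sums of 193 TPM in replicate 1 and 135 TPM in replicate 2. The 6 choroid plexus markers were all higher in replicate 2, with sums of 9.38 and 314 TPM, most of it Ttr. In bulk tissue, fewer cells of a type and less RNA per cell cannot be told apart.

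All 10 members were detected, which means 1 TPM or more in both libraries. Over all 22028 protein-coding genes 13124 were detected, or 59.6%. The members ran from 25.1 TPM to 126 TPM in replicate 1 and from 25.4 TPM to 139 TPM in replicate 2, with medians of 50.5 and 52.9 TPM. They are large genes. Their median span was 250.2 kb, against 25.9 kb over the detected protein-coding genes, their median number of coding exons was 43, against 9, and their median number of annotated transcripts was 10.5, against 5. The 10 genes have 118 annotated transcripts, of which 64 are complete coding models, meaning protein-coding records with no mark of an incomplete start or end. Of these 64 models, 26 reached 1 TPM in both libraries and 26 were listed at 0 in both in the first quantification. Cacna1c held most of those at 0, with 16 of its 22 complete models, and Cacna1g had the most at 1 TPM, with 6 of 11.

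Many of the other models are fragments of the gene, and they add to the TPM of the gene. A few reads on a very short model give as much TPM as a great many reads on the full messenger RNA. Complete coding models held 76.1% of the TPM in the median member, against 83.0% over the detected protein-coding genes. In the second quantification these medians were 76.6% and 77.7%. In Cacna1g, models under 1000 bases held 46.1% and 50.1% of the gene's TPM in replicates 1 and 2 but only 6.36% and 7.55% of its expected counts. Cacna1a had 34.8% and 37.0% of its TPM on such models, with 4.17% and 4.36% of its counts. At the other end, Cacna1e had 2.42% and 2.18% of its TPM there, and Cacna2d1 had 3.65% and 3.31%. The plot of shares on short models shows that this gap between TPM and counts was present in both libraries. For that reason levels of complete coding models are given beside the gene totals, a scale chosen after the data were seen.

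**Figure D1:**
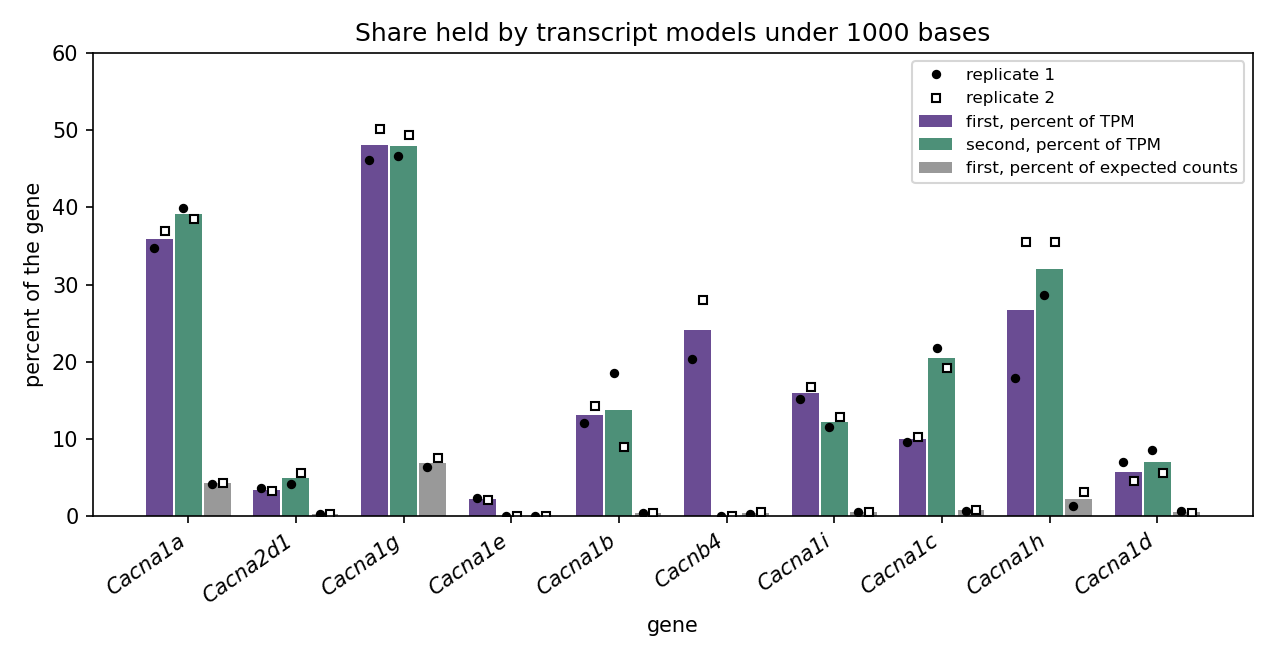
Percent of each gene held by transcript models under 1000 bases, by gene, as a percent of TPM in the first and second quantification and as a percent of expected counts. Bars are means of both libraries and symbols are the libraries. Cacna1g reached 46.1% and 50.1% of TPM from 6.36% and 7.55% of counts, and Cacnb4 reached 20.4% and 28.0% in the first quantification but 0% in the second.

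By total TPM the order was Cacna1a, Cacna2d1, Cacna1g, Cacna1e, Cacna1b, Cacnb4, Cacna1i, Cacna1c, Cacna1h and Cacna1d. Neighbours are called apart here where the lower library of the higher gene lies above the higher library of the lower gene, and 6 of the 9 neighbouring pairs were apart. The exceptions were Cacna1g and Cacna1e, Cacna1c and Cacna1h, and Cacna1h and Cacna1d. Over complete coding models the order began with Cacna2d1, and Cacna1a, Cacna1e and Cacna1b followed within a narrow range of 50.3 to 56.9 TPM. On that scale 8 of 9 neighbouring pairs were apart, the exception being Cacnb4 and Cacna1i. The place of Cacna1a at the head of the list was therefore found on the gene totals of both quantifications but not on complete coding models.

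**Figure D2:**
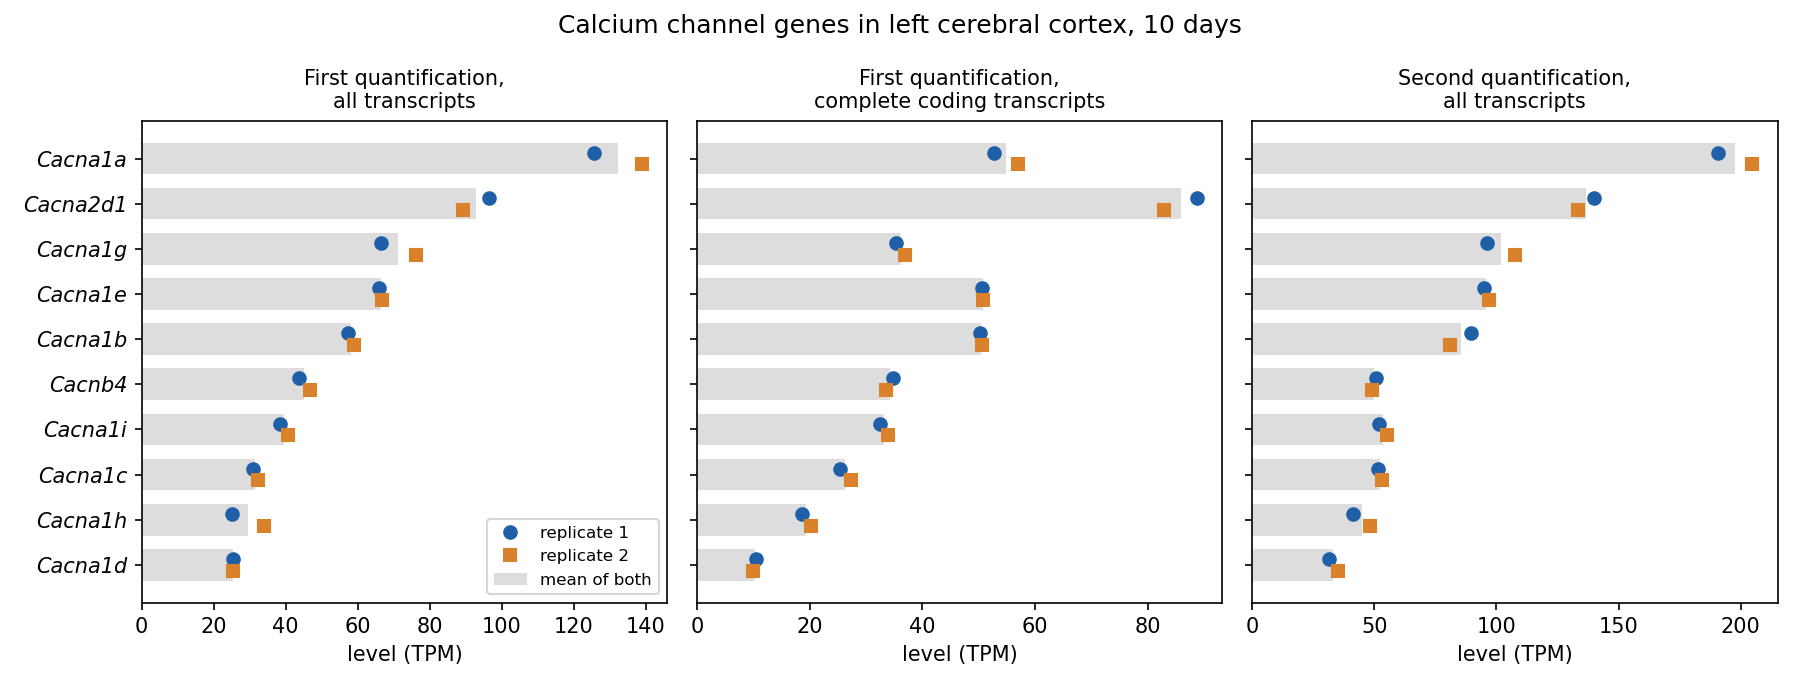
Level in TPM of each gene, ordered by total TPM, for all transcripts of the first quantification, for its complete coding transcripts, and for all transcripts of the second quantification. Bars are means of both libraries and symbols are the libraries. Cacna1a leads the gene totals with 126 and 139 TPM, while Cacna2d1 leads the complete coding models with 88.8 and 82.9 TPM.

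The pore-forming genes of the Cav2 class made up the largest share of the pore-forming pool. Of the summed TPM of all 10 pore-forming genes, which adds the near-silent Cacna1f and Cacna1s to the 8 members, Cav2 held 57.1% in replicate 1 and 55.9% in replicate 2. The Cav3 share was 29.8% and 31.8%, and the Cav1 share was 13.1% and 12.4%. The means were 56.5 ± 0.873% for Cav2, 30.8 ± 1.38% for Cav3 and 12.7 ± 0.508% for Cav1 (SD, n = 2). The shares were close to these when only complete coding models were summed, with means of 55.4%, 31.5% and 13.1%, although the level of the single genes fell by very different amounts. The second quantification gave 56.9%, 30.0% and 13.0%. The plot of class shares shows the same order of classes in both libraries on every scale.

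**Figure D3:**
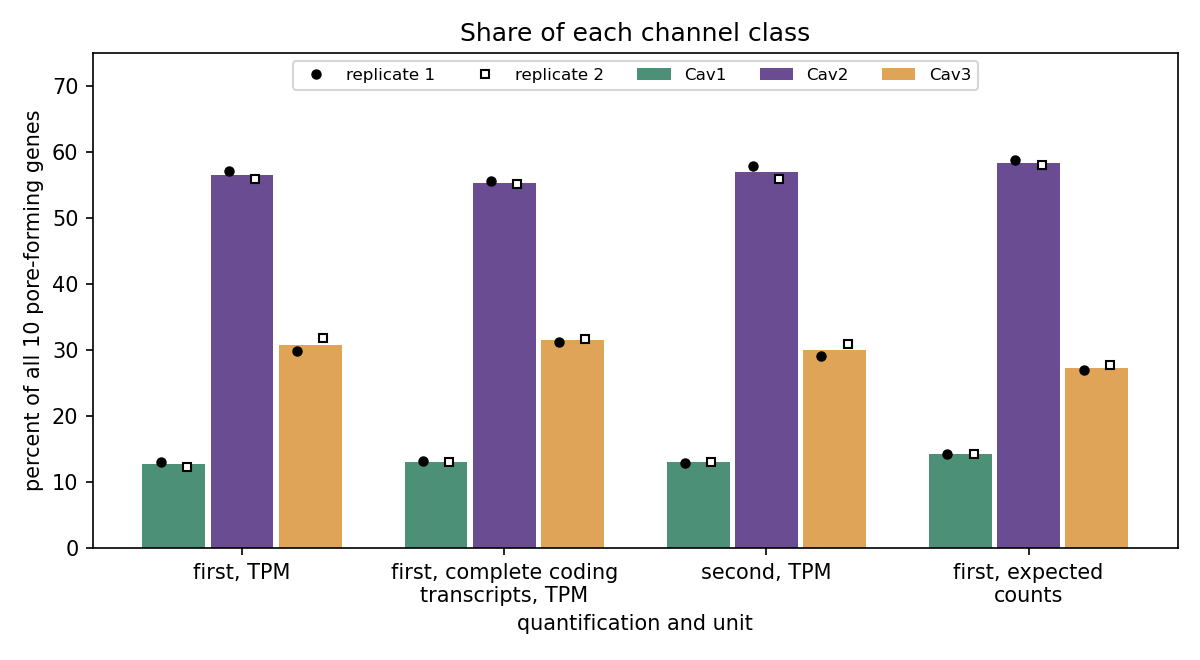
Percent of all 10 pore-forming genes held by the Cav1, Cav2 and Cav3 classes, by quantification and unit. Bars are means of both libraries and symbols are the libraries. Cav2 stays between 55.2% and 58.8%, Cav3 between 27.0% and 31.8%, and Cav1 between 12.4% and 14.3%.

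Cacna1a (ENSMUSG00000034656.17, chr8:84388440-84640246, plus strand) encodes the pore of the P/Q-type channel, the main calcium source of fast transmitter release in the mature brain. It had 126 TPM in replicate 1 and 139 TPM in replicate 2, from 9904 and 10177 expected counts. In the second quantification it had 191 and 205 TPM. Its mean of 132 ± 9.48 TPM was the highest of the members, and replicate 2 was above replicate 1 in both quantifications. Cacna1a-201, a model of 2368 residues and 47 exons, took 85.2% and 85.4% of the gene's counts but 41.8% and 40.5% of its TPM. The next by TPM was Cacna1a-210, a processed transcript of 549 bases, with 374 and 391 counts and 40.5 and 44.1 TPM. It held 32.3% and 31.7% of the gene's TPM, and 37.3% and 36.0% in the second quantification. Cacna1a-206, a model of 1150 bases with a retained intron, held 11.5% and 9.03%. Over complete coding models, Cacna1a stood at 52.8 and 56.9 TPM.

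Cacna1b (ENSMUSG00000004113.18, chr2:24603887-24763152, minus strand) encodes the pore of the N-type channel, the presynaptic channel blocked by omega-conotoxin. It had 57.2 and 59.1 TPM from 8890 and 8565 counts, and complete coding models held 50.3 and 50.6 TPM of it. Cacna1e (ENSMUSG00000004110.16, chr1:154390731-154884501, minus strand) encodes the pore of the R-type channel, found in dendrites as well as terminals. It drew the most reads of any member, 15993 and 15432 counts, which came to 66.0 and 66.9 TPM. Its main model, Cacna1e-203, is the longest of the named transcripts at 14921 bases and held 72.1% and 71.4% of the gene's TPM. Over complete coding models Cacna1e had 50.7 and 50.9 TPM, so the 3 Cav2 genes lay close together on that scale.

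A structural feature that all 3 Cav2 genes share is a pair of 97-base exons in the part of the gene that encodes the start of the intracellular C-terminal tail, next to the calmodulin-binding region. The annotation puts either the upstream or the downstream exon of the pair into a transcript. In Cacna1b the upstream exon is known from pain-sensing neurons, and the downstream exon is the usual form of the brain. The exons are shown because the complete coding models of Cacna1a carry the upstream exon and those of Cacna1b and Cacna1e the downstream exon. Capitals mark the bases that differ from the partner exon of the same gene.
Cacna1a upstream exon (chr8:84614695-84614791, plus strand): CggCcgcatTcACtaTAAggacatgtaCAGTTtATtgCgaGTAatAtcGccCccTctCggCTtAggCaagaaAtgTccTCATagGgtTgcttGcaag
Cacna1a downstream exon (chr8:84615574-84615670, plus strand): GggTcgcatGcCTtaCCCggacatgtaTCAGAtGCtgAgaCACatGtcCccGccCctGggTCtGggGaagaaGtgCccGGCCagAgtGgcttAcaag
Cacna1b upstream exon (chr2:24626823-24626919, minus strand): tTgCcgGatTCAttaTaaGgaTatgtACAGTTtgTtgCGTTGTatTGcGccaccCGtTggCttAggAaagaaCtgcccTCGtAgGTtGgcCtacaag
Cacna1b downstream exon (chr2:24625238-24625334, minus strand): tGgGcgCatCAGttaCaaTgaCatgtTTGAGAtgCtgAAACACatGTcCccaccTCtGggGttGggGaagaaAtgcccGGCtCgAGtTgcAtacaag
Cacna1e upstream exon (chr1:154417950-154418046, minus strand): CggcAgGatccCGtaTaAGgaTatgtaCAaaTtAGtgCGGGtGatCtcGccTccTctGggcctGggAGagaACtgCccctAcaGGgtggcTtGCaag
Cacna1e downstream exon (chr1:154416061-154416157, minus strand): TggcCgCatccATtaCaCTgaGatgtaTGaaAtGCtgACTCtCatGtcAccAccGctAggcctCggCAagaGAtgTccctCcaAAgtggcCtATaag
Upstream and downstream exons were identical at 61.9% of positions in Cacna1a, 58.8% in Cacna1b and 62.9% in Cacna1e. Between genes, exons of the same kind were more alike than the exons of 1 gene. The upstream exons of Cacna1a and Cacna1b were identical at 75.3% of positions, and their downstream exons at 79.4%. The downstream exon of Cacna1e matched that of Cacna1a at 72.2% and that of Cacna1b also at 72.2%.

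Cacna1a differed from Cacna1b and Cacna1e in the shares of the pair. In each gene the exon with the larger share was the one that its complete coding models carry. Models of Cacna1a with the upstream exon had 55.2 and 58.7 TPM, and the only model with the downstream exon, Cacna1a-210, had 40.5 and 44.1 TPM. The upstream exon thus held 57.4 ± 0.365% of the TPM that carried either exon, and 54.1 ± 0.178% in the second quantification (SD, n = 2). Cacna1b was almost wholly downstream, with 50.3 and 50.6 TPM on models with the downstream exon and 0.67 and 0 TPM on Cacna1b-210, the only model with the upstream exon. Cacna1e was also mostly downstream, with 50.7 and 50.9 TPM against 1.60 and 1.46 TPM on Cacna1e-208, the only model with the upstream exon. In the second quantification both upstream models, Cacna1b-210 and Cacna1e-208, were listed at 0 in both libraries. These 2 models were picked out after their values had been seen. In each gene the less annotated exon lies only on a fragment model: Cacna1a-210 has 452 bases in exons of complete coding models and 97 bases outside them, which are the downstream exon itself. Reads in those 97 bases can be assigned to no other model of the gene, while the level of the fragment depends on how the shared 452 bases were divided between it and Cacna1a-201. Cacna1a-201 has 7926 bases, against 549 for Cacna1a-210, so its level was set by reads along the whole messenger RNA. No complete coding model of Cacna1a carries the downstream exon. The share of either exon therefore does not rest on reads of the pair alone and is no direct measure of exon use. Because Cacna1a-210 is not a protein-coding model, the upstream exon of Cacna1a held all of the TPM when only protein-coding models were counted.

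Cacna1b carried 2 small cassettes as well, of 12 and 6 bases, in stretches that encode parts of domains III and IV of the channel. They are shown with 30 bases of flanking coding sequence, and capitals mark the cassette.
Cacna1b 12-base cassette (chr2:24656711-24656722, minus strand): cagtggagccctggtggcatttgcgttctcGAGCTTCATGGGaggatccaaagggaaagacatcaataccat
Cacna1b 6-base cassette (chr2:24642853-24642858, minus strand): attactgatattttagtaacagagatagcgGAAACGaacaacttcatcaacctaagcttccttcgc
In the annotation these cassettes are opposed. Cacna1b-205 has the 12-base cassette and lacks the 6-base one, and Cacna1b-202 and Cacna1b-204 have the 6-base cassette and lack the 12-base one. Models with the 12-base cassette had 19.2 and 19.8 TPM, and models without it had 31.1 and 30.8 TPM. Inclusion of the 12-base cassette was 38.6 ± 0.727%, and that of the 6-base cassette was 61.4 ± 0.727% (SD, n = 2). Cacna1b-205 has 6987 bases, against 9736 for Cacna1b-204 and 9655 for Cacna1b-202, which reach further at the 3′ end. Inclusion therefore does not rest on reads of the cassettes alone. Since the models tie the cassettes together, the 2 inclusion levels are 1 measurement and not independent ones. In the second quantification the values were 44.8 ± 0.381% and 55.2 ± 0.381%, which made Cacna1b-205 the top transcript there, at 36.7% and 39.1%, while Cacna1b-204 led the first quantification at 39.2% and 33.8%. A 108-base cassette late in the C-terminal tail was skipped only in Cacna1b-202, with 8.72 and 10.8 TPM, and was included in 82.9% and 78.8% of the TPM. A 63-base cassette lies only on the fragment Cacna1b-206, which had 24.2 and 32.9 counts and 5.64 and 8.00 TPM, and 0 in the second quantification.

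The named models of Cacna1e differ in how they start. Cacna1e-203 starts with a coding exon of 269 bases and Cacna1e-207 with another, upstream one of 189 bases. The upstream start held 5.97% and 6.12% of the TPM of models with either start in the first quantification. It held 19.9% and 20.5% in the second. These models also differ in length, at 14921 bases for Cacna1e-203 and 6765 for Cacna1e-207. The share therefore does not rest on reads of the starts alone. A 129-base cassette later in the gene lies only on Cacna1e-207 and therefore followed the same values, 5.96% and 6.12%.

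The L-type gene Cacna1c (ENSMUSG00000051331.15, chr6:118587240-119196418, minus strand) encodes the channel that couples activity to transcription in neurons and drives contraction of heart and smooth muscle. It spans 609 kb, more than any other member. It had 30.9 and 32.4 TPM from 5590 and 5641 counts, and 25.4 and 27.4 TPM over complete coding models. Cacna1d (ENSMUSG00000015968.17, chr14:30039939-30491455, minus strand) encodes the L-type channel that opens at more negative voltages and supports pacemaking. It had 25.4 TPM in both libraries, from 2768 and 2735 counts, which was the fewest reads of any member. Its complete coding models held only 10.6 and 9.91 TPM, or 41.6% and 39.0% of the gene. Cacna1c was above Cacna1d in both libraries on each of the 3 scales.

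Both L-type genes have a pair of 104-base exons in domain I, the first of the 4 repeats of the pore, and a channel uses 1 of them. They are shown because the genes lean towards opposite members of the pair. Capitals mark the bases that differ from the partner exon of the same gene.
Cacna1c upstream exon (chr6:118742265-118742368, minus strand): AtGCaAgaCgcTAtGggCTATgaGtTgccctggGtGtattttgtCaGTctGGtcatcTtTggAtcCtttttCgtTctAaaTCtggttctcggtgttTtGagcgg
Cacna1c downstream exon (chr6:118741871-118741974, minus strand): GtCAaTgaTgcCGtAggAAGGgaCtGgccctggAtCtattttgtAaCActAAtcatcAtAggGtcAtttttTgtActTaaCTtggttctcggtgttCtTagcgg
Cacna1d upstream exon (chr14:30171956-30172059, minus strand): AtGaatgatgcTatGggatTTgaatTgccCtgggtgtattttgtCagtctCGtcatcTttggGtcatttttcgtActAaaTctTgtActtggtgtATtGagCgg
Cacna1d downstream exon (chr14:30171296-30171399, minus strand): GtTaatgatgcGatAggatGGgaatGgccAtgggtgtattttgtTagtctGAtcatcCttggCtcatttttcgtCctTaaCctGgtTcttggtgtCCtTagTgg
The upstream exons of the 2 genes were identical at 86.5% of positions and the downstream exons at 79.8%, while the exons of a pair were identical at 69.2% in Cacna1c and 78.8% in Cacna1d. In Cacna1c, models with the upstream exon had 16.0 and 17.8 TPM and models with the downstream exon had 9.48 and 9.66 TPM. The upstream exon held 63.8 ± 1.43% of the TPM there, and 56.7 ± 0.303% in the second quantification. In Cacna1d, models with the upstream exon had 4.37 and 4.59 TPM and models with the downstream exon had 9.20 and 9.49 TPM. The upstream exon held 32.4 ± 0.280% there, and 35.1 ± 6.28% in the second quantification (SD, n = 2). Most of this lay on Cacna1d-208, a model marked for nonsense-mediated decay: over protein-coding models alone the upstream exon of Cacna1d held 8.52% in the first quantification and 2.42% in the second. The ranges of the 2 genes did not overlap in either quantification.

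Cacna1c has 2 more exon pairs, of 60 and 84 bases, which encode parts of membrane helices in domains III and IV.
Cacna1c upstream 60-base exon (chr6:118674555-118674614, minus strand): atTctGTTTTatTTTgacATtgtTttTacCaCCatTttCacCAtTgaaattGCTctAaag
Cacna1c downstream 60-base exon (chr6:118674346-118674405, minus strand): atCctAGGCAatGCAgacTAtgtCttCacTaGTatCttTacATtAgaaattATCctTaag
Cacna1c upstream 84-base exon (chr6:118638427-118638510, minus strand): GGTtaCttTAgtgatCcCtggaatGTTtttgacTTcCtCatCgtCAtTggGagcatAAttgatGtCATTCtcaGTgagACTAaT
Cacna1c downstream 84-base exon (chr6:118637730-118637813, minus strand): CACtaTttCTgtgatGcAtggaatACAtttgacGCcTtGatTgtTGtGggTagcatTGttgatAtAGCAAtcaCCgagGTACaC
Capitals again mark the differing bases, and the exons of either pair were identical at 58.3% of positions. Of the 60-base pair the downstream exon was the more common, at 65.2 ± 1.06% of the TPM in the first quantification and 59.9 ± 0.532% in the second. Of the 84-base pair both exons were used about equally: the upstream exon had 13.3 and 13.5 TPM and the downstream exon 12.2 and 14.0 TPM, so that the higher exon differed between the libraries. The first coding exon was as evenly divided, with 13.0 and 13.2 TPM on models with the upstream start and 12.1 and 13.9 TPM on models with the downstream start. A 75-base cassette had 9.48 and 9.66 TPM, the same values as the downstream domain I exon, because the expressed models join both.

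These shares rest on few models. Cacna1c-207, of 2169 residues, held 42.2% and 40.8% of the gene's TPM and was the top transcript in both quantifications. Cacna1c-216, of 2164 residues, held 28.7% and 28.2%, and Cacna1c-203, of 2139 residues, held 9.72% and 14.2%. Cacna1c-207 has 13162 bases, against 7338 for Cacna1c-216 and 7631 for Cacna1c-203, and reaches further at the 3′ end. The shares of the Cacna1c choices, the domain I pair included, therefore do not rest on reads of the exons alone. The processed transcript Cacna1c-218, of 954 bases, held 2.92% and 2.87% in the first quantification but 15.0% and 14.2% in the second. Combinations of exons that no annotated model joins cannot be seen in these tables, so the choices along 1 gene are not separate measurements.

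Cacna1d was divided among more models than any other member: 7 of its 12 reached 10% of the TPM in at least 1 quantification, or led it. Its top transcript was Cacna1d-204 in the first quantification, at 10.2% and 20.6%, and Cacna1d-202 in the second, at 32.4% and 18.4%. The libraries did not share a top transcript in either quantification. In the first, Cacna1d-207 led replicate 1 at 16.7% and held 11.0% in replicate 2, and in the second, Cacna1d-208 led replicate 2 at 24.5%. The 45-base cassette was included in 53.4% and 49.4% of the TPM, but in 40.1% and 28.2% over protein-coding models alone, where skipping was the major form. The 60-base cassette was included in 32.1% and 22.0%. The decay model Cacna1d-208 held 11.9% and 16.4%, and Cacna1d-203, which retains an intron near the end of the gene, held 13.6% and 14.5%. In all 589 exon bases overlap Chdh on the other strand, which stood at 0.13 and 0.14 TPM.

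The T-type genes were led by Cacna1g (ENSMUSG00000020866.17, chr11:94408391-94474198, minus strand), best known for the burst firing of thalamic relay neurons. It had 66.5 and 76.2 TPM from 6260 and 6421 counts, and 96.0 and 108 TPM in the second quantification. Complete coding models held 35.3 and 37.0 TPM of this, 53.0% and 48.6%. The fragments Cacna1g-212, with 11.1 and 15.2 TPM, and Cacna1g-214, with 11.7 and 13.7 TPM, came from 156 and 205 counts and from 168 and 188 counts. These models have 524 and 619 bases outside the exons of complete coding models. In the second quantification Cacna1g-212 was the top transcript of the gene, at 20.8% and 26.8%, while Cacna1g-203 led the first at 28.5% and 25.0%. Of the 5 thalamic markers 4 were detected, led by Slc17a6 at 21.1 and 22.6 TPM and Rora at 20.6 and 19.6 TPM, with Gbx2 lowest at 0.30 and 0.10 TPM, and their part in the level of Cacna1g was not tested.

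Between domains III and IV, Cacna1g transcripts differ by a 21-base extension and a 54-base cassette at the same junction. They are shown with 30 flanking bases, and capitals mark the added bases.
Cacna1g 21-base extension (chr11:94425764-94425784, minus strand): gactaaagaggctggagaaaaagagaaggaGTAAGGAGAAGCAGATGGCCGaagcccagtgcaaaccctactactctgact
Cacna1g 54-base cassette (chr11:94423671-94423724, minus strand): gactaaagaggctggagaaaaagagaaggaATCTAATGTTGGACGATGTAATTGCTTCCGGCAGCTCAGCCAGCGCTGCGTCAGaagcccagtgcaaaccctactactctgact
Models with the 54-base cassette had 27.9 and 30.0 TPM and models without it had 7.35 and 7.00 TPM. Inclusion was 80.1 ± 1.37% in the first quantification and 84.3 ± 2.18% in the second (SD, n = 2). The 21-base extension was the minor form in both, at 21.4 ± 0.463% and 39.7 ± 4.56%. The fragment Cacna1g-212 (chr11:94425240-94426462) also covers these 21 bases but was not counted in this share, so reads there may be assigned to it. Likewise, the fragment Cacna1g-214 (chr11:94418847-94424343) spans the place of the 54-base cassette and was not counted in the share of that cassette. A 69-base cassette further upstream was included in 85.3% and 80.3% of the TPM in the first quantification and in 66.4% and 65.6% in the second. The cassettes of 54 and 69 bases were thus the major forms in both quantifications, while the size of the 69-base share was not the same in both.

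Cacna1h (ENSMUSG00000024112.16, chr17:25374285-25433783, minus strand), a T-type gene also active in sensory neurons and smooth muscle, showed the widest gap between the libraries of any member. It had 25.1 TPM in replicate 1 and 33.9 TPM in replicate 2, a log2 ratio of 0.44. Its counts differed far less, at 3217 and 3394. Cacna1h-205, the top transcript of the first quantification, had 18.7 and 20.2 TPM, and the rest of the difference lay on fragments. Cacna1h-204, a 412-base model with a retained intron, had 7.49 and 36.0 counts, or 1.17 and 5.84 TPM, and was listed at 0 in the second quantification. Cacna1h-207, of 879 bases, had 0 and 2.04 TPM. A further split inside the gene does not change the protein: Cacna1h-201 and Cacna1h-205 have the same coding sequence of 7077 bases. The first quantification gave Cacna1h-201 nothing. The second gave it 19.9% and 31.1%, with 39.9% and 26.2% for Cacna1h-205, so that Cacna1h-205 led replicate 1 and the mean while Cacna1h-201 led replicate 2.

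Cacna1i (ENSMUSG00000022416.15, chr15:80287238-80398279, plus strand), the T-type gene with the slowest kinetics, was the simplest member. It had 38.5 and 40.8 TPM from 6524 and 6510 counts. Its single complete coding model, Cacna1i-202 of 2199 residues, held 84.6% and 83.3% of the TPM and led both quantifications. The second-ranked fragment depended on the quantification: Cacna1i-203, of 394 bases, held 13.6% and 16.7% in the first and 0 in the second, and Cacna1i-201, of 779 bases, held 1.51% and 0% in the first and 11.5% and 12.9% in the second. Over complete coding models Cacna1g, Cacna1i and Cacna1h followed each other without overlap of the libraries, at 35.3 and 37.0, 32.6 and 33.9, and 18.7 and 20.2 TPM.

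Cacna2d1 (ENSMUSG00000040118.15, chr5:15934691-16374511, plus strand) encodes the alpha2delta subunit that binds gabapentin and helps synapses form. It had 96.5 and 89.2 TPM from 11588 and 10230 counts, and it was the only member whose total TPM in the first quantification was lower in replicate 2. In the second quantification Cacna1b, at 89.7 and 80.9 TPM, and Cacnb4, at 50.7 and 48.9 TPM, were lower there too. It was the leading alpha2delta gene, with 61.6% and 60.6% of the summed TPM of the 4 genes. Cacna2d3 followed at 41.2 and 40.2 TPM and Cacna2d2 at 17.6 and 16.0 TPM, and Cacna2d4 had 1.28 and 1.80 TPM. With 92.1% and 92.9% of its TPM on complete coding models, Cacna2d1 had the highest such share of the members in the first quantification.

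In their proteins the 3 abundant models of Cacna2d1 differ at 1 place, in the middle. Cacna2d1-202, of 1084 residues, has no insertion there, and Cacna2d1-203 and Cacna2d1-205, both of 1091 residues, have 21 extra bases each. The 21 bases of Cacna2d1-203 form an exon of their own. Those of Cacna2d1-205 are spread over an extension of the exon before, a 9-base exon and an extension of the exon after. Capitals mark the 21 bases between 30 shared flanking bases, and the coding sequences of both models are the same length of 3273 bases and differ at 12 bases.
Cacna2d1-203 insertion (chr5:16341990-16342010, plus strand): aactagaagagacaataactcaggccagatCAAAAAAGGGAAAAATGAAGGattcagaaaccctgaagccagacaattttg
Cacna2d1-205 insertion (chr5:16340784-16342682, plus strand): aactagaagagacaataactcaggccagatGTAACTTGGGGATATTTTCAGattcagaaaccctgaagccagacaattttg
Models that include the exon of Cacna2d1-203 held 27.4% and 29.0% of the TPM in the first quantification and 31.5% and 33.9% in the second. The other 2 models differed far more. Cacna2d1-202 had 44.9 and 43.4 TPM and led the first quantification at 46.5% and 48.6%, but held 16.0% and 4.24% in the second. Cacna2d1-205 had 19.7% and 16.4% in the first and 45.6% and 53.8% in the second. Whether most Cacna2d1 RNA lacked an insertion or carried the one of Cacna2d1-205 thus depended on the quantification. Outside the coding sequence the models differ in length. Cacna2d1-203 has 3879 bases, and Cacna2d1-202 and Cacna2d1-205 have 7311 and 7436 and reach further at the 3′ end. Their shares therefore do not rest on reads of the insertions alone. A 57-base cassette, known from the skeletal muscle form of this subunit, was listed at 0 TPM in both libraries, and held 0.950% and 1.16% in the second quantification.

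Cacnb4 (ENSMUSG00000017412.15, chr2:52428320-52676831, minus strand) encodes a beta subunit that binds the pore-forming subunit from inside the cell and is abundant in the cerebellum. It had 43.8 and 46.6 TPM from 5735 and 5316 counts, and 34.9 and 33.6 TPM over complete coding models, so that the order of the libraries turned round. The gap lay on Cacnb4-205, a 208-base processed transcript at the 5′ end, with 20.0 and 28.0 counts, or 8.94 and 13.0 TPM, and 0 in the second quantification. The gene A430018G15Rik on the other strand shares 1433 exon bases with Cacnb4 and stood at 0.21 and 0.08 TPM. Among the 4 beta genes Cacnb4 held 22.5% and 23.1% of the summed TPM. Cacnb3 led with 80.9 and 83.1 TPM, Cacnb1 had 55.1 and 56.8 TPM, and Cacnb2 had 15.2 and 15.7 TPM.

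Forms of Cacnb4 differ in their first coding exons. Cacnb4-201 has a long start and 519 residues, Cacnb4-202 a 45-base start and 486 residues, and Cacnb4-203 a 6-base start and 473 residues. The 2 main starts are printed in capitals, followed by 30 bases of the shared exon. The long start joins coding exons that lie far upstream of the 45-base start.
Cacnb4 long start (chr2:52675728-52676330, minus strand): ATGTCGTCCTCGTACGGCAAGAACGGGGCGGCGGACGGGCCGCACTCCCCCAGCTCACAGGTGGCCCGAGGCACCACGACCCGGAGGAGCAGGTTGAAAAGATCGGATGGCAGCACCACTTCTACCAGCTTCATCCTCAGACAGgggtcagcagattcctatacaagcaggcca
Cacnb4 45-base start (chr2:52558269-52558313, minus strand): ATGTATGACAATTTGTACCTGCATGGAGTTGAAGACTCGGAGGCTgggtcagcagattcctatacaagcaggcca
Models with the long start had 19.3 and 18.8 TPM, models with the 45-base start 12.3 and 10.2 TPM, and the model with the 6-base start 3.35 and 4.56 TPM. The long start held 55.6 ± 0.615% in the first quantification and 47.8 ± 0.784% in the second (SD, n = 2). The 45-base start held 32.8 ± 3.42% and 47.3 ± 1.15%. Cacnb4-201 was the top transcript in the first quantification and Cacnb4-202 in the second, where the values of the long and the 45-base start differed by less than the spread between the libraries.

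The exon choices of all members are drawn in the plot of exon choices. Of 51 exon forms, 41 had means in the quantifications that differed by more than 1 SD of the libraries. The same count over other genes was not computed, so it cannot be read as a trait of these genes. Opposed forms of a choice move together, and some choices share the same models, so these forms are not independent.

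**Figure D4:**
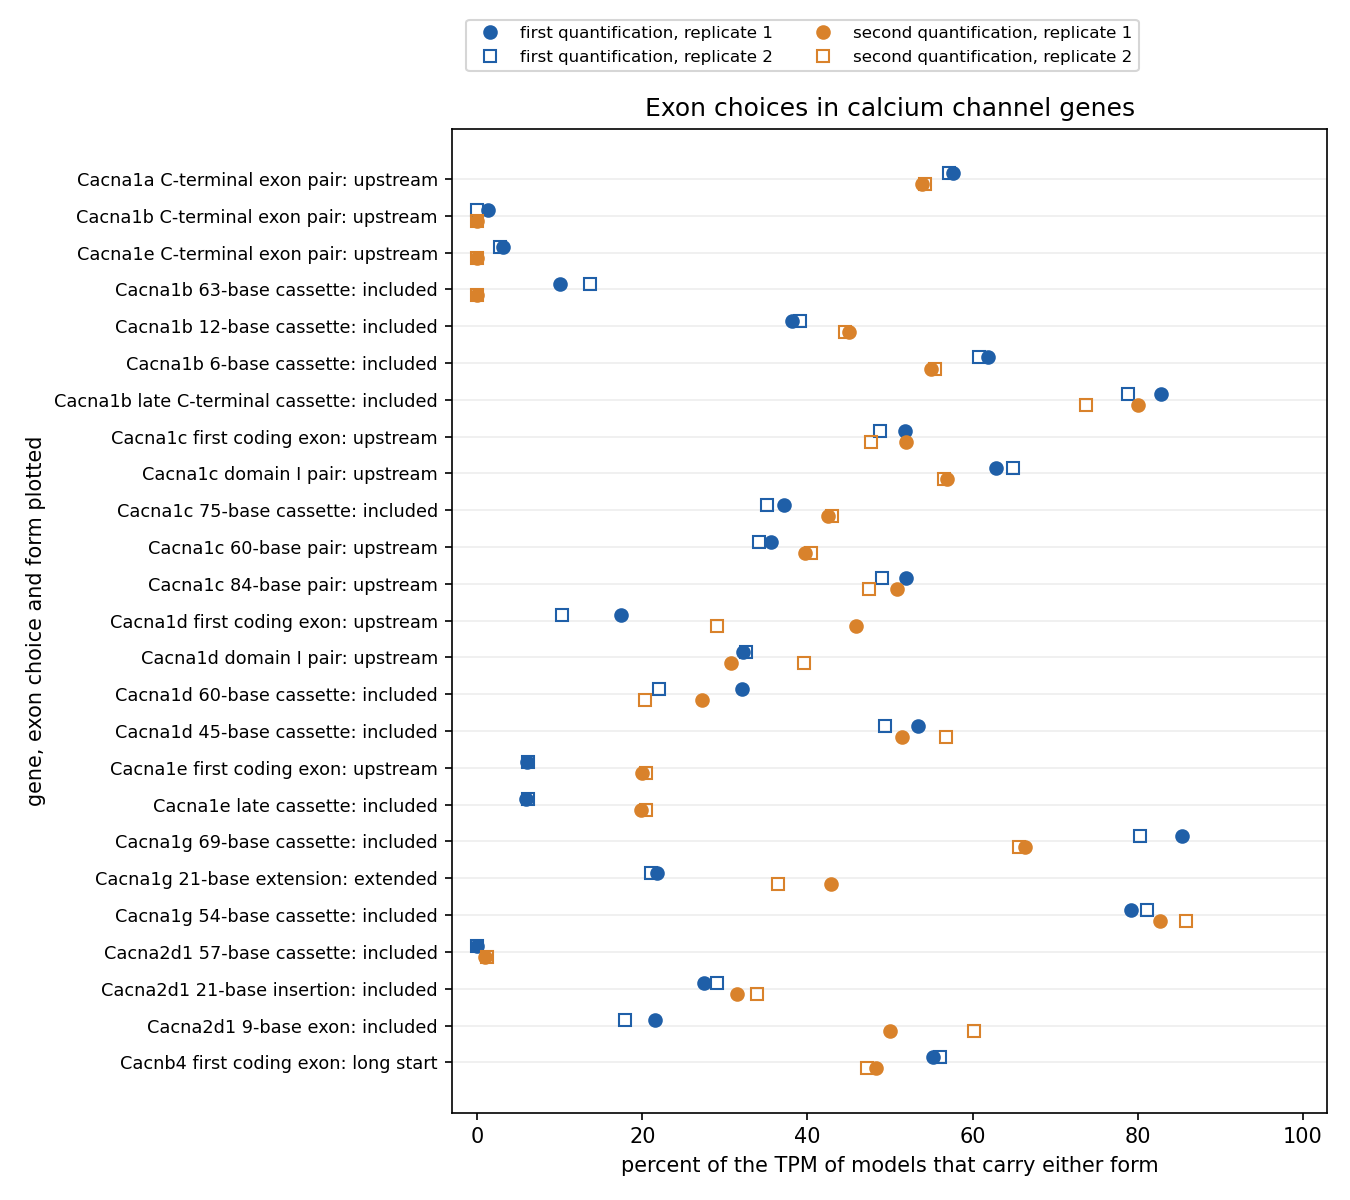
Percent of the TPM of models carrying either form that was held by the form named on the axis, for each exon choice, library and quantification. The upstream C-terminal exon lies at 57.6% and 57.1% in Cacna1a, at 1.31% and 0% in Cacna1b and at 3.06% and 2.79% in Cacna1e in the first quantification.

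By the mean of the libraries, both quantifications put the same transcript at the top in 5 of 10 members, namely Cacna1a, Cacna1c, Cacna1e, Cacna1h and Cacna1i. In replicate 2 alone the count was 4, without Cacna1h. Over 12021 protein-coding genes with at least 2 transcripts and a mean of 1 TPM or more this share was 76.0%. Between the libraries of the first quantification the top transcript was the same in 9 of 10 members, the exception being Cacna1d, against 88.6% over all those genes.

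The other subunits of these channels were read as a list of 10 genes, of which 7 were detected. Cacna1f, the L-type gene of the retina, stood at 0.08 and 0.11 TPM, and Cacna1s, that of skeletal muscle, at 0.72 and 0.75 TPM. The skeletal muscle gamma subunit genes Cacng1 and Cacng6 stood at 0.17 and 0.13 TPM and at 1.41 and 1.21 TPM. Pools of subunits can be set side by side because TPM is per length. The 7 pore-forming genes of Cav1 and Cav2, which use auxiliary subunits, summed to 306 and 324 TPM, the 4 beta genes to 195 and 202 TPM, and the 4 alpha2delta genes to 157 and 147 TPM. Over complete coding models these sums were 190.1 and 196 TPM, 167 and 170.2 TPM, and 140.5 and 131 TPM. The pore-forming pool was the largest on each scale, and the gap to the beta genes was narrower on complete coding models.

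All 15 genes of a list of channel partners and regulators were detected, with medians of 51.9 and 53.0 TPM. The highest was Snap25, a component of the release machinery that binds presynaptic calcium channels, at 571 and 562 TPM. The lowest was Rrad, a small GTPase that inhibits the channels through the beta subunit, at 2.46 and 1.96 TPM. None of these 15 genes and none of the 10 other subunits differed by more than 1.5-fold between the libraries. Among all genes averaging at least 100 expected counts, 1.24% did.

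The libraries were close for the members, as they were for nearly all genes. None of 10 differed by more than 1.5-fold, a threshold passed by 159 of the 12835 genes that averaged at least 100 expected counts, or 1.24%. The widest difference after Cacna1h was that of Cacna1g, with a log2 ratio of 0.20 (replicate 2 over replicate 1, 0.1 TPM added). In total TPM 9 of 10 members were higher in replicate 2, where 62.1% of all those genes were. In CPM, which divides expected counts by their sum, 6 of 10 were higher, where 58.6% of all genes were. Over complete coding models 7 of 10 were, and the share of all genes was not computed on that scale. The ratio in CPM was 0.913 for Cacna2d1, with a 95% Clopper-Pearson interval of 0.889 to 0.938, and 1.09 for Cacna1h, with an interval of 1.04 to 1.15. These intervals cover counting error only, because they are computed from the counts and hold no spread between samples. The reads carry no molecular identifiers and may repeat a molecule, so even counting error may be understated. Besides the striatal and choroid plexus markers named above, all 4 erythroid markers were lower in replicate 2, with sums of 1158 TPM in replicate 1 and 801 TPM in replicate 2. All 5 hippocampal markers were higher in replicate 2, with sums of 13.1 and 16.4 TPM, and 4 of 5 mural cell markers were lower there. The part of these markers in the small differences of the members was not tested.

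**Figure D5:**
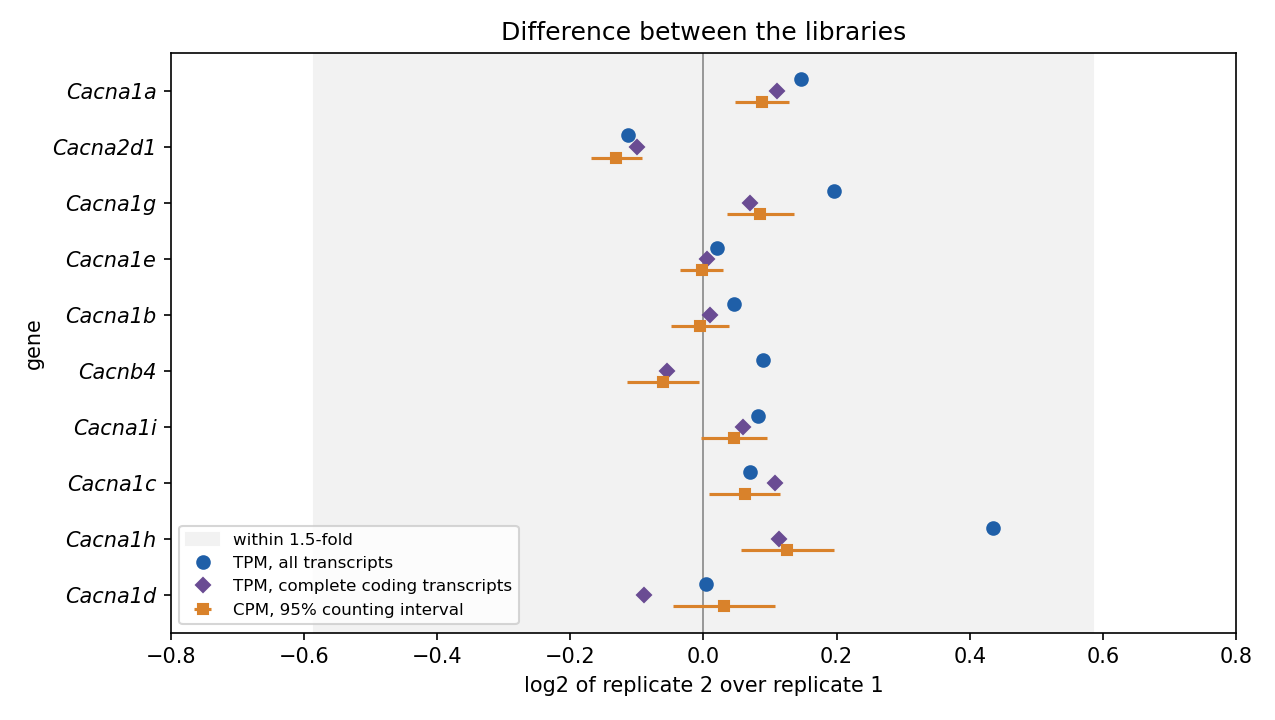
Log2 of replicate 2 over replicate 1 for each gene in TPM of all transcripts, in TPM of complete coding transcripts and in CPM with its 95% counting interval. The shaded band marks 1.5-fold. All values lie inside it, and Cacna1h drops to 0.11 over complete coding transcripts from 0.44 over all transcripts.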

How the data were processed

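Total RNA of 2 libraries of 1 group was analysed. Per the deposited descriptions, all tables rest on mm10 and GENCODE M21. Which programs made them, in which versions, and whether strand was used are not given in the sources. The authors deposited expected counts, TPM, posterior mean TPM and the percent of each gene's TPM held by each transcript (first quantification), and estimated counts and TPM per transcript (second quantification), which were summed by gene. Alternatives were the second quantification, posterior mean TPM, complete coding or protein-coding transcripts alone, other pseudocounts and filters, and each library alone. Alleles of the hybrid were not told apart.

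All 10 members matched by symbol. Shares, means and SDs were computed with Python 3.11.15 and pandas 2.3.3, and TMM factors from rounded expected counts with edgeR 4.0.16. No p-value was computed. Exon choices were located in the GENCODE M21 models, and exon sequences were read from its transcripts. Named were the members, transcripts with 10% or more of a gene's TPM in the mean of either quantification or at its top, the other subunits, and the highest and lowest partner. The ratio of the libraries was checked on simulated data. The members and lists were chosen with earlier results of these data known.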

Additional observations from a re-analysis of the deposited data

How the results depend on the processing

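All 10 members stayed detected at a minimum of 5 TPM and in the second quantification. None passed 1.5-fold with 1 TPM added, without a count filter, in CPM scaled by TMM, in the second quantification or over complete coding transcripts. In expected counts, which are not per length, the shares were 14.3% for Cav1, 58.4% for Cav2 and 27.4% for Cav3, and over complete coding transcripts Cav2 held 55.4%. The cause was not tested. Leaving out each library in turn gave 12.4% to 13.1% for Cav1, 55.9% to 57.1% for Cav2, 29.8% to 31.8% for Cav3, and 4 to 5 members with the same top transcript in both quantifications (Cacna1h was lost in replicate 2 alone). Member TPM moved by more than 1 SD for all 10 members in the second quantification, over complete coding transcripts and when rescaled to nuclear protein-coding genes. Rescaling changes every gene of a library by the same factor, so its result was fixed in advance. Nuclear protein-coding genes held 48.0% and 49.0% of the TPM in the first quantification (replicates 1 and 2) and 78.0% and 79.3% in the second. These moves are therefore not particular to the members. The second quantification moved 35 of 39 named transcript shares and 41 of 51 exon forms by more than 1 SD. The same counts over all genes were not computed, so they cannot be read as a trait of the members. Opposed forms of an exon choice move together, so the forms are not independent. Counting protein-coding transcripts alone moved 6 of 51: both exons of the Cacna1a C-terminal pair (upstream 100%), both of the Cacna1d domain I pair (upstream 8.52%) and the Cacna1d 45-base cassette (included 34.1%, skipped 65.9%). The log2 ratio of the libraries changed sign in the second quantification for Cacna1b (0.05 and -0.15) and Cacnb4 (0.09 and -0.05), and over complete coding transcripts for Cacna1d (0.003 and -0.09) and Cacnb4 (0.09 and -0.05). No paired analysis was possible because there is only 1 group. Depth limits the short models most: several rest on fewer than 40 counts.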
